A study of Mus musculus with 8 samples.

Results

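The AP-1 family genes taken here were Fos, Fosb, Fosl1, Fosl2, Jun, Junb, Jund and Atf3. They were taken as a list of names, which was drawn up with earlier results of these data known, and all 8 were among the 21915 genes of the mRNA count table and among the 14142 genes that passed a filter on low counts and were tested. Polyadenylated RNA was sequenced from Hepa 1-6 cells, a mouse hepatoma line, in 2 control samples and 2 Kap1 knockdown samples (Kap1 KD). Kap1 KD cells carried an shRNA against KAP1, the co-repressor encoded by Trim28, which is best known for recruiting heterochromatin factors to transposable elements. The study's methods describe a pLKO lentiviral vector with an empty vector as control, whereas the sample labels speak of a plasmid encoding a control shRNA; cells were collected 5 days after transduction. All samples were of 1 cell line, 1 shRNA against KAP1 is described in the labels, and no label states that the replicates came from separate cultures, so the p-values measure only the spread between these samples, which may be technical.

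AP-1 is a family of dimeric transcription factors with a basic region that binds DNA and a leucine zipper that holds the partners together. Jun proteins can pair with themselves or with Fos proteins, Fos proteins need a Jun partner, and ATF3 pairs with Jun proteins or with itself. Many of these genes are immediate early genes: growth factors, stress and injury switch them on within minutes through MAP kinases, and their short-lived mRNAs then decay quickly. In liver, Jun is known for its part in regeneration and hepatoma formation, and Atf3 is induced by many kinds of stress.

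Total counts per sample ranged from 41566888 to 53605115. Values below are CPM, counts scaled to the size of the library, after TMM normalization, which sets the libraries so that most genes keep the same level. Trim28 stood at 456 and 575 CPM in control replicates 1 and 2 and at 106 and 78.9 CPM in Kap1 KD replicates 1 and 2. Its log2 fold change was -2.48 (standard error 0.25). Its p ranked first among the tested genes, yet the adjusted p was 0.9999 by the quasi-likelihood F test of edgeR, the test used throughout, and 2.6e-10 by DESeq2. Kap1 KD replicate 2 stood apart from the other libraries in its 7SK RNA: the 49 annotated 7SK loci summed to 43.0 CPM there, against 1.91 to 2.42 CPM in the other 3 samples. Hepatocyte genes were present, with Alb at 441 to 1580 CPM and Afp at 445 to 750 CPM. Apoa1, however, had at most 0.423 CPM, and Ttr and Serpina1a at most 0.222 CPM. Of 11 markers of other cell types, the epithelial gene Epcam was the highest, at 8.57 to 16.5 CPM, followed by the macrophage gene Cd68 at 3.19 to 7.42 CPM, Krt19 at 0.235 to 2.23 CPM, the fibroblast gene Col1a1 at 0.575 to 1.52 CPM and Des at 0.610 to 1.13 CPM. The endothelial gene Pecam1 had at most 0.262 CPM, and the other 5, among them the leukocyte gene Ptprc, at most 0.171 CPM.

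To see which AP-1 genes these cells express, levels were compared per kilobase of exon, since a longer transcript yields more reads. Junb, an immediate early Jun protein that often acts as a weaker activator than Jun, was the highest, at 104 ± 43.1 CPM per kb (SD over the 4 samples), and lay above 95% of the tested genes. It made up 65.9% of the summed mean level of the 8 genes. Jund, the Jun gene that is least dependent on stimulation, followed at 18.2 ± 4.92 CPM per kb. Atf3 was at 10.8 ± 3.43, Fosl1 at 8.53 ± 3.41 and Fosl2 at 8.52 ± 1.49 CPM per kb. Fosl1 and Fosl2 encode Fra-1 and Fra-2, the Fos relatives that lack the strong activation domain of FOS. Jun itself had 5.98 ± 0.448 CPM per kb, close to the median of 5.58 CPM per kb over all tested genes. Fos and Fosb, the most transient members, were the lowest, at 1.11 ± 0.171 and 0.541 ± 0.219 CPM per kb, or the 24.4th and 17.0th percentiles.

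The order varied between samples only in the place of Fosl2. The 4 samples of Junb all lay above those of Jund, those of Fosl2 above those of Jun, those of Jun above those of Fos, and those of Fos above those of Fosb. The ranges over the 4 samples overlapped for Jund and Atf3 and for Atf3 and Fosl1, but within each of the 4 samples Jund was above Atf3 and Atf3 above Fosl1. Fosl1 was above Fosl2 in 1 of the 4 samples, Kap1 KD replicate 2, and below it in the other 3, so that their order by the mean did not exceed the spread. In control replicate 2, Fosl2 was also above Atf3, at 9.26 against 8.90 CPM per kb. Summed over the 8 genes, the level was 117 and 146 CPM per kb in control replicates 1 and 2 and 128 and 239 CPM per kb in Kap1 KD replicates 1 and 2. The 3 Jun genes supplied 198 of the 239 CPM per kb in Kap1 KD replicate 2, and the 4 Fos genes 25.7.

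**Figure D1:**
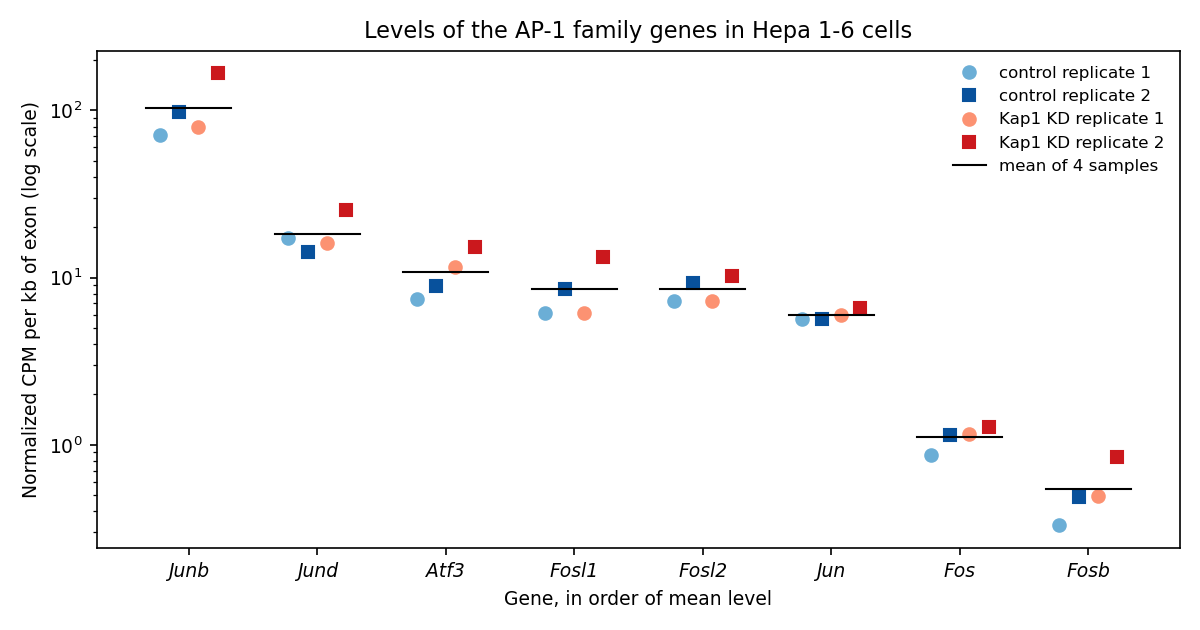
Normalized CPM per kilobase of exon (log scale) of the 8 AP-1 family genes in each of the 4 samples, ordered by the mean of the 4 samples (black bars). Junb, at a mean of 104 CPM per kb, stands above all others, Fos and Fosb lie lowest, and Kap1 KD replicate 2 (dark red squares) is the highest sample of every gene.

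Among the members, the 2 Kap1 KD samples both lay above the 2 control samples for Atf3, Fosb, Fos and Jun, as for 9.69% of all tested genes. For Fos and Fosb the higher control and lower Kap1 KD samples nearly met, at 2.70 against 2.72 CPM and 1.83 against 1.85 CPM. The RefSeq promoters of these 4 genes are shown to give the sequence around their start sites, most of it upstream. All matched the mm9 genome exactly, at 1 place each, and are written 5′ to 3′ on the gene's strand, with capitals for the half-site TGACG of a cAMP response element, on either strand, or for the related octamer TGACATCA. Atf3 is read from chr1:193007163-193007462 (minus strand), Fos from chr12:86814590-86814889 (plus strand), Fosb from chr7:19895345-19895644 (minus strand) and Jun from chr4:94718864-94719163 (minus strand).
Atf3: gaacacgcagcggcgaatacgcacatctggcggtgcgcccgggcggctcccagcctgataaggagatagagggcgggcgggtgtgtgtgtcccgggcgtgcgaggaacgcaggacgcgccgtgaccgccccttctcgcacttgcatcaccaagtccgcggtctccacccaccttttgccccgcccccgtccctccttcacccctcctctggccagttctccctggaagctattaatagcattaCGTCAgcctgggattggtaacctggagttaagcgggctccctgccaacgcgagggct
Fos: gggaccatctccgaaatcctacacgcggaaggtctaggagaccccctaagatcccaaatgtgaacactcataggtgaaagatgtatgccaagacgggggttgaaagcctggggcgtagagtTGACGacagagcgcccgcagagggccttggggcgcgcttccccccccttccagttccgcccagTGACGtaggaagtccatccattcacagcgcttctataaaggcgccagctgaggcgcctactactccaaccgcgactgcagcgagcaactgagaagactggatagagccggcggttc
Fosb: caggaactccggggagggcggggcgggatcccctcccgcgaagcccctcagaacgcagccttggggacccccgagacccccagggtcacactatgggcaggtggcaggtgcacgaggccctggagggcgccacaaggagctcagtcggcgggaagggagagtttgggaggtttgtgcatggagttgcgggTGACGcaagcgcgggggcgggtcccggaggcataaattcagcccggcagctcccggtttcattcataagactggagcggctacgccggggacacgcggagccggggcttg
Jun: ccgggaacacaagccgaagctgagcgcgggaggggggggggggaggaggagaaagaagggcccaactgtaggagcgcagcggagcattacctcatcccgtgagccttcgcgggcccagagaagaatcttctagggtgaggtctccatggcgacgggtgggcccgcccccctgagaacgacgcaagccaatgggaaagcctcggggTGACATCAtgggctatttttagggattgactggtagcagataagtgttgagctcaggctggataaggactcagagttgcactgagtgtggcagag
In Atf3 the half-site lay in the reverse orientation, 7 bases before the start. Fos held it at 2 places, 129 and 66 bases upstream, and Fosb once, 60 bases upstream. Jun held the octamer TGACATCA 45 bases upstream and no TGACG. RefSeq promoters were matched for 7 of the 8 members, all except Fosl1. TGACG, searched on both strands, was in 4 of them (Atf3, Fos, Fosb and Junb), against 20.8% of the 32851 promoters of the same length. TGACATCA was in 1 of them, Jun, against 3.62% of all promoters. The consensus AP-1 element TGACTCA was in none of the 7 windows (5.2% of all promoters), nor was the full element TGACGTCA (1.79%), which contains TGACG, nor a CArG box, the site of serum response factor (1.63%). TATAAA was found in Fos and Junb (13.6% of all promoters) and CCAAT in Atf3, Jun and Junb (37.4%). These are matches of letters in a fixed window and were not tested for binding or for a link to expression. Sequence farther upstream was not searched, so an element absent from a window may lie outside it.

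The main question was whether AP-1 genes differ between Kap1 KD and control cells. A call was set at a 1.5-fold change and an adjusted p under 0.05. In the fit without a replicate term, none of the 8 was called. Neither was any other gene (0% of the 14142 tested in each direction), Trim28 included. With a block for the replicate number, edgeR called 2 members, Atf3 and Fosb, higher, as it did 2.06% of all tested genes. DESeq2 with the block called 107 genes higher, and 1 member, Atf3, was among them. The edgeR block fit left 1 residual degree of freedom with an infinite prior. The study, using DESeq2 and the same thresholds, reported genes changed in both directions. It listed Junb among inducible genes that were not deregulated at baseline. For each member edgeR without the block gave 0.9999 as the p adjusted over all tested genes by Benjamini-Hochberg. DESeq2 without a replicate term called 3 genes (0.0137%), none of them a member; they were Trim28, Atp2b2 and 9130204K15Rik, the last 2 named here after their values were seen. In the edgeR fit without the block, Atf3 was the 1 member with an unadjusted p under 0.05, a level that 185 genes reached (1.31%). All 8 fitted log2 fold changes were above 0, as for 47.1% of all tested genes, with a median of 0.41 over the members and -0.02 over all tested genes. Both Kap1 KD samples lay above both control samples in 4 of 8 members, against 9.69% of all tested genes, and in 0 of 8 both lay below (10.6%). For each of the 4 a two-sided exact permutation test on the samples gave p = 0.333, the smallest that 2 against 2 allow.

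Atf3 encodes a stress-induced member that represses many of its targets as a homodimer. Its gene (ENSMUSG00000026628) spans mm9 chr1:192994175-193007219 on the minus strand, with 4 exons in its longest transcript. It was measured at 14.8 and 17.7 CPM in control replicates 1 and 2 and at 22.9 and 30.3 CPM in Kap1 KD replicates 1 and 2. The groups did not overlap: the gap between the lower Kap1 KD sample and the higher control sample was wider than the distance between the control samples, and narrower than that between the Kap1 KD samples. The fitted log2 fold change was 0.71 (standard error 0.24, 95% interval 0.08 to 1.35), and the gene ranked 119th of all tested genes by its p. Per replicate number, the log2 change was 0.63 in the replicate 1 samples and 0.77 in the replicate 2 samples. The fitted value ranged from 0.51 to 0.90 when any 1 sample was left out.

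Among the Fos genes, Fosb (ENSMUSG00000003545, mm9 chr7:19888070-19895394, minus strand) had the fewest reads, with 69 and 91 counts in control replicates 1 and 2 and 79 and 149 in Kap1 KD replicates 1 and 2. These gave 1.24 and 1.83 CPM in control and 1.85 and 3.18 CPM in Kap1 KD. The groups were barely separated, as the exact 95% Poisson interval of control replicate 2 (1.48 to 2.25 CPM) holds the value of Kap1 KD replicate 1; such intervals cover counting error only. Its fitted log2 change of 0.72 (standard error 0.42) was of the same size as that of Atf3 but with a wider 95% interval, from -0.38 to 1.81. Without Kap1 KD replicate 2 it was 0.28.

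Fos (ENSMUSG00000021250, mm9 chr12:86814840-86818223, plus strand), the prototype immediate early gene, was also read from few counts: 114 and 134 in control replicates 1 and 2, then 116 and 140 in the Kap1 KD replicates. At 2.05 and 2.70 CPM against 2.72 and 2.99 CPM, the groups touched, and the Poisson interval of control replicate 2 (2.26 to 3.20 CPM) spanned both Kap1 KD values. The log2 change was 0.40 in the replicate 1 samples and 0.14 in the replicate 2 samples, which made Fos the 1 member with a larger change in replicate 1. Its fitted log2 fold change was 0.27 (standard error 0.30), and became 0.08 without control replicate 1 and 0.50 without control replicate 2.

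Fosl1 (ENSMUSG00000024912, mm9 chr19:5447703-5455945, plus strand) differed between the replicates of each group more than between the groups. It had 10.4 and 14.6 CPM in control replicates 1 and 2 and 10.4 and 22.8 CPM in Kap1 KD replicates 1 and 2. The replicate 1 samples were level, with a log2 change of 0.001, and the replicate 2 samples differed by 0.63. Without Kap1 KD replicate 2, the fitted log2 fold change of 0.41 (standard error 0.44) became -0.26. Its 3′ end overlaps Ccdc85b on the opposite strand over 2783 bases of the annotation, and the strand setting of the counting is not given in the sources used here, so reads of the 2 genes may not have been told apart. The counts of Ccdc85b were 2385 and 1860 in control replicates 1 and 2 and 1607 and 2560 in the Kap1 KD replicates, more than the 580, 726, 444 and 1065 of Fosl1 in the same samples, so the level of Fosl1 and its place in the order are uncertain.

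Fosl2 (ENSMUSG00000029135, mm9 chr5:32438845-32460204, plus strand) had the smallest fitted change, at 0.08 on the log2 scale (standard error 0.26). It stood at 42.7 and 54.2 CPM in control and at 42.5 and 60.0 CPM in Kap1 KD replicates 1 and 2. The replicate 1 samples were again level, and the groups overlapped. The fitted value became -0.18 without Kap1 KD replicate 2 and -0.08 without control replicate 1.

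The 3 Jun genes each consist of 1 exon. Jun (ENSMUSG00000052684, mm9 chr4:94715725-94718913, minus strand) was the steadiest member, at 18.0 and 18.1 CPM in control and 19.0 and 21.1 CPM in Kap1 KD replicates 1 and 2. The groups did not overlap, yet the fitted log2 fold change was only 0.15 (standard error 0.20, 95% interval -0.37 to 0.67), and 0.08 without Kap1 KD replicate 2. An opposite-strand gene, BC042782, overlaps Jun over 689 bases but had at most 12 counts in a sample, against 810 to 1004 for Jun.

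Junb (ENSMUSG00000052837, mm9 chr8:87500811-87502617, minus strand) rested on 1 sample. It had 130 and 177 CPM in control and 144 and 301 CPM in Kap1 KD replicates 1 and 2, so that Kap1 KD replicate 1 lay between the control samples. Its log2 change was 0.15 in the replicate 1 samples and 0.77 in the replicate 2 samples. The fitted log2 fold change of 0.54 (standard error 0.40) became -0.08 without Kap1 KD replicate 2.

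Jund (ENSMUSG00000071076, mm9 chr8:73221638-73224515, plus strand) showed the same dependence, with 49.6 and 40.8 CPM in control and 46.6 and 73.0 CPM in Kap1 KD replicates 1 and 2. It was the 1 member that was lower in replicate 2 than in replicate 1 of the control group, by 0.28 on a log2 scale, and its log2 change was -0.09 in the replicate 1 samples and 0.84 in the replicate 2 samples. The fitted log2 fold change of 0.40 (standard error 0.29) was 0.05 without Kap1 KD replicate 2. Gm11175 overlaps it on the opposite strand over 543 bases.

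**Figure D2:**
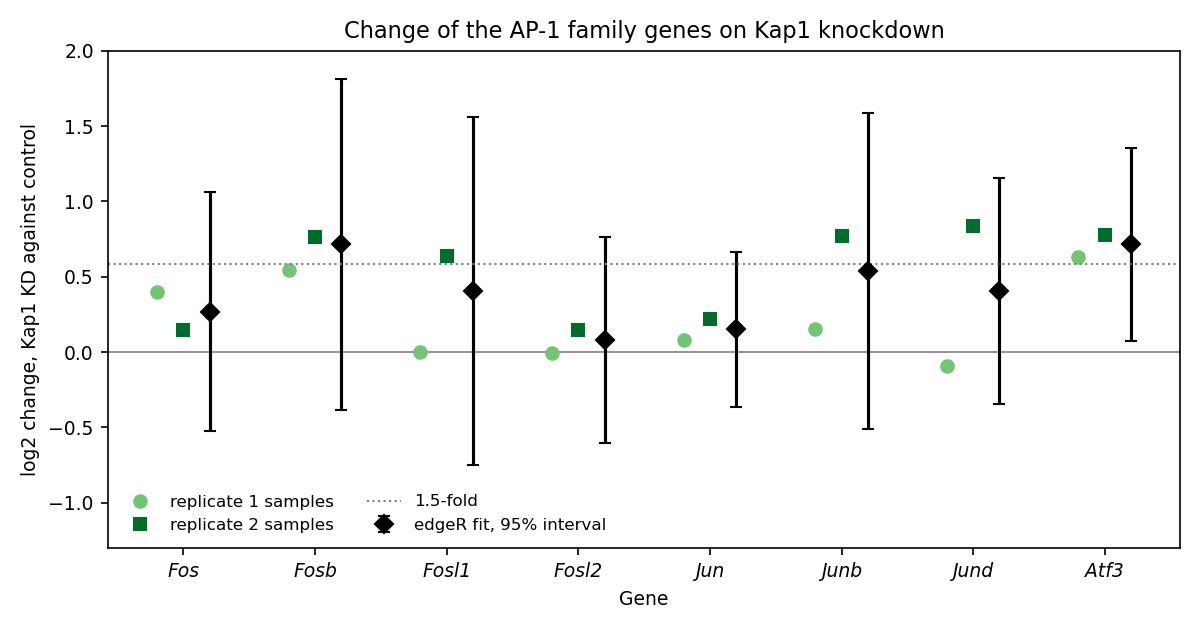
Log2 change of each AP-1 family gene in Kap1 KD against control, within the samples numbered 1 (light circles), within those numbered 2 (dark squares) and as fitted by edgeR with its 95% interval (black diamonds); the dotted line marks a 1.5-fold increase. Atf3 is the 1 gene whose interval lies above 0, from 0.08 to 1.35, and Jund has the widest gap between the replicate numbers.

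Each of the 8 genes was highest in Kap1 KD replicate 2, as were 32.8% of all tested genes, and the same 8 were highest there with DESeq2-type size factors (33.7% of all) or with total counts alone (24.1%). The log2 change was above 0 in both replicate numbers for 6 members (32.8% of all tested genes), although for Fosl1 by 0.001. The median log2 change was 0.70 in the replicate 2 samples and 0.11 in the replicate 1 samples, where all tested genes had medians of 0.00 and -0.02. Within the control group, 7 of 8 members were higher in replicate 2 than in replicate 1 (49.8% of all tested genes), by a median of 0.36 on the log2 scale. Within the Kap1 KD group 8 of 8 were (49.7%), by a median of 0.57. Kap1 KD replicate 1 taken alone lay above both control samples for 4 members, against 21.9% of all tested genes, and Kap1 KD replicate 2 alone for 8 (36.3%). Both counts, chosen after seeing the data, follow from those already given and add no separate support.

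Base composition moved with that pattern. The transcripts of the members had a GC content of 51.9% (Fos) to 62.7% (Jund), which placed 3 of them (Fos, Fosl2 and Atf3) in the third quartile of tested genes by GC content and the other 5 in the highest. The share of tested genes that were highest in Kap1 KD replicate 2 was 4.86% in the lowest quartile, 17.8% and 44.2% in the middle quartiles and 66.4% in the highest. The share with both Kap1 KD samples above both control samples did not climb in this way, at 4.83%, 11.1%, 10.9% and 9.31% from the lowest to the highest quartile. In the 2 upper quartiles the median gene was higher in replicate 2 than in replicate 1 by 0.20 and 0.31 on the log2 scale in control and by 0.21 and 0.45 in Kap1 KD. The median log2 change in Kap1 KD of these quartiles was 0.01 and 0.02 in the replicate 1 samples and 0.02 and 0.15 in the replicate 2 samples. GC content was known for 12417 of the tested genes (87.8%). The part of GC content or of the 7SK-rich library in the members' values was not tested.

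**Figure D3:**
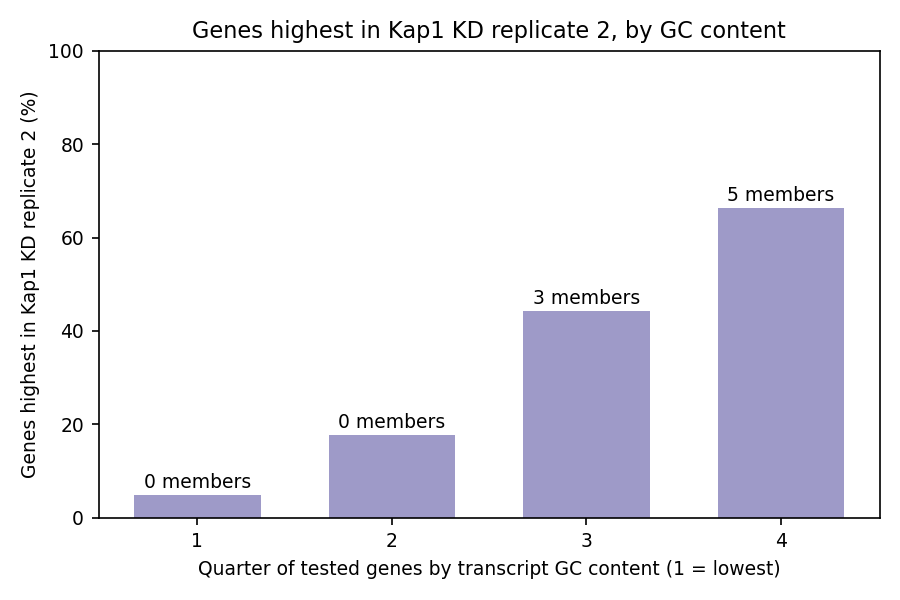
Share of tested genes (%) whose highest value among the 4 samples was in Kap1 KD replicate 2, for each quartile of genes by transcript GC content, with the number of AP-1 family genes in each quartile written above the bar. The share climbs from 4.86% to 66.4%, and all 8 AP-1 family genes lie in the 2 upper quartiles.

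The mRNAs of the family are known for AU-rich elements in their 3′ untranslated regions, which recruit decay factors. The pentamer ATTTA was present in the annotated 3′ untranslated region of all 8 members, as in 66.5% of the 12078 tested genes with such a region, and was densest in Fos (4.91 per kb), Junb (4.14 per kb) and Jun (3.24 per kb), where the median over genes was 1.18 per kb. Fosb, at 0.47 per kb, was the sparsest. The stronger nonamer TTATTTATT, which contains the pentamer, was in Fos and Fosl2 (7.24% of tested genes). The 2 sites are shown with 10 bases on each side, in the sense of the mRNA and with the nonamer in capitals, because they are the elements that set these 2 members apart from the other 6.
Fos: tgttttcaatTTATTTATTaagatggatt
Fosl2: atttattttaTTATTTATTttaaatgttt
They begin at base 655 of the Fos region and at base 3692 of the Fosl2 region. The 2 genes had fitted log2 fold changes of 0.27 and 0.08, against 0.15 to 0.72 for the 6 members without the nonamer; with 2 genes this was not tested.

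The genes around AP-1 were read from lists of its partners, its regulators and its targets. Without the block, the call took none of their genes, but it took 0% of all tested genes in each direction, so this says nothing about the lists. Among 24 tested dimer partners and other relatives with a leucine zipper, the median log2 fold change was -0.07, and both Kap1 KD samples lay above both control samples for 3 and below them for 2, near the shares of all tested genes (9.69% and 10.6%). Atf4, the effector of the integrated stress response, had the highest level of these, at 274 and 199 CPM in control and 258 and 170 CPM in Kap1 KD replicates 1 and 2. Maff, a small MAF protein, came next, and its log2 fold change was 0.18 (standard error 0.26). Cebpd, an acute phase regulator, had the largest positive difference, with 3.25 and 4.07 CPM against 4.55 and 13.2 CPM, a log2 fold change of 1.28 (standard error 0.56) that leaned on Kap1 KD replicate 2. Maf had the largest negative one, -0.70 (standard error 0.38).

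Upstream, 27 tested MAP kinase pathway genes had a median log2 fold change of 0.02, with 3 above and 3 below control in both samples, where all tested genes had shares of 9.69% and 10.6%. Mapk3, which encodes ERK1, was at 157 and 226 CPM in control and 143 and 209 CPM in Kap1 KD. Mapkapk3 and Map3k1 had the largest log2 fold changes, 0.65 (standard error 0.36) for the first and -0.59 (standard error 0.41) for the second. The 15 tested activators that bind the Fos and Jun promoters or their cofactors had a median of 0.05, with 2 above and 1 below control in both samples. Srf, the serum response factor, was at 45.5 and 61.3 CPM in control and 49.4 and 81.7 CPM in Kap1 KD, which overlapped. The 15 tested genes of AP-1 mRNA and protein turnover had a median of -0.06, with 1 above and 1 below control in both samples. In this list Zfp36, the factor that binds AU-rich elements and is itself an immediate early gene, stood at 8.90 and 9.49 CPM in control and 13.4 and 15.3 CPM in Kap1 KD replicates 1 and 2. Its groups did not overlap, and its log2 fold change was 0.64 (standard error 0.22). Nedd4l, with the next largest change, separated the other way. It had 75.0 and 89.8 CPM in control and 66.8 and 74.2 CPM in Kap1 KD replicates 1 and 2 (log2 fold change -0.23, standard error 0.19).

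Downstream, 30 tested AP-1 target genes had a median log2 fold change of 0.06, with 3 above and 5 below control in both samples (9.69% and 10.6% of all tested genes). The most abundant, S100a6 and the cyclin D1 gene Ccnd1, had log2 fold changes of 0.05 and -0.01. Mmp9, a matrix metalloprotease gene, had few reads and the largest difference, from 1.27 and 1.91 CPM in control to 3.54 and 9.47 CPM in Kap1 KD replicates 1 and 2, a log2 fold change of 2.03 (standard error 0.57). Sphk1, which makes sphingosine 1-phosphate, had the largest negative one, -0.78 (standard error 0.31). The 16 other immediate early genes had a median of 0.34, with 14 log2 fold changes above 0 (47.1% of all tested genes). Of the 16, 6 were above control in both samples (9.69% of all), 0 were below (10.6%) and 11 were highest in Kap1 KD replicate 2 (32.8%). Btg2, an antiproliferative gene, had 35.6 and 48.6 CPM in control and 66.8 and 96.3 CPM in Kap1 KD (log2 fold change 0.95, standard error 0.28). Ier3 had a log2 fold change of 0.62 (standard error 0.28) and Myc of 0.20 (standard error 0.18). For Myc, Btg2 and Ier3, as for Atf3, both Kap1 KD samples exceeded both control samples. Ctgf, next to Myc in level, overlapped between the groups. It had 138 and 207 CPM in control and 151 and 270 CPM in Kap1 KD replicates 1 and 2.

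**Figure D4:**
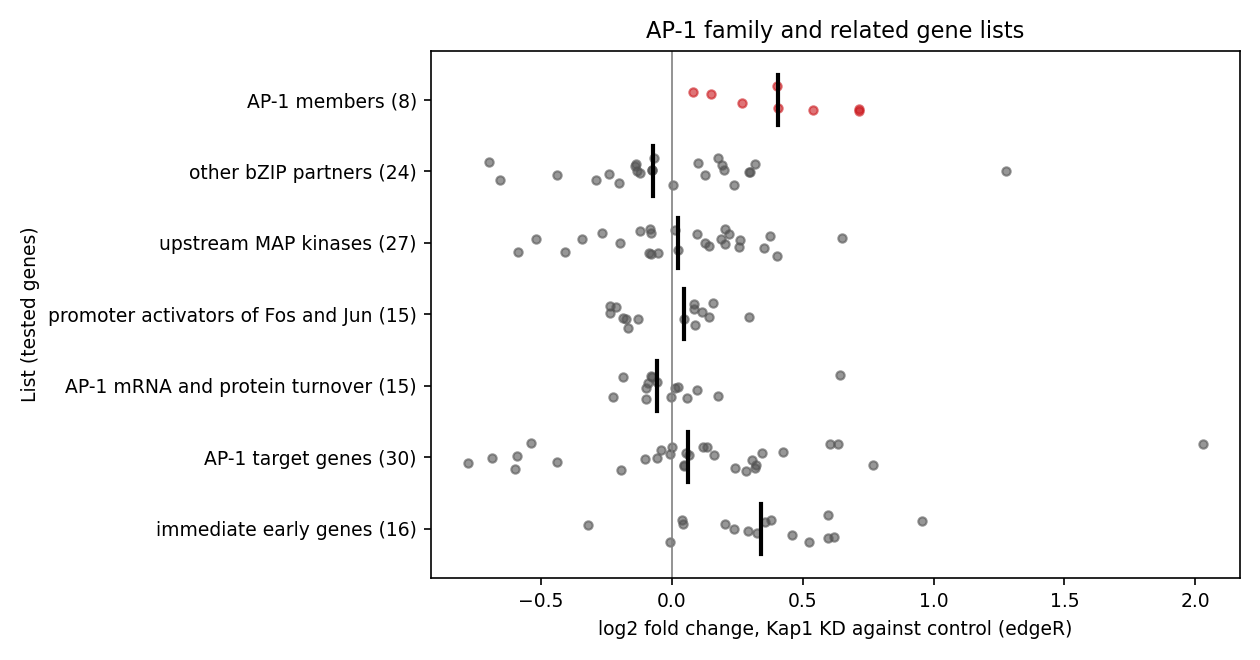
Log2 fold change in Kap1 KD against control (edgeR) of every tested gene of the AP-1 family (red) and of 6 related lists (grey), with black bars for the list medians; vertical scatter within a list has no meaning. The medians of the AP-1 family (0.41) and of the immediate early genes (0.34) lie to the right of the other lists, which span -0.07 to 0.06.

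Hepatocyte genes had lower values in the same Kap1 KD samples. Of 10 tested hepatocyte markers, 0 had a log2 fold change above 0, the median was -0.52, and for 6 the Kap1 KD values were both under the control values (10.6% of all tested genes). Their summed level was 3167 and 3384 CPM in control replicates 1 and 2 and 2207 and 1982 CPM in Kap1 KD. The 11 markers of other cell types summed to 24.5 and 24.7 CPM in control and to 19.5 and 19.0 CPM in Kap1 KD replicates 1 and 2, a sum that Epcam dominated. Without Epcam, the remaining 10 summed to 7.97 and 9.51 CPM in control and to 7.39 and 10.4 CPM in Kap1 KD, so that the groups overlapped. In bulk RNA, fewer cells with a transcript and less of it in each cell cannot be told apart, and the part of the hepatocyte genes' difference in the AP-1 values was not tested.

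Genes whose values followed a member over the 4 samples were ranked by the distance between their centred log2 CPM. The nearest to Atf3 were 2610524H06Rik (distance 0.072) and Ube2e2 (0.081), to Fosb Lynx1 (0.019), to Fos 8430429K09Rik (0.005) and to Jun Dclre1b (0.014). Junb lay nearest to Gm16517 (0.045), Fosl1 to Slc39a13 (0.067), Fosl2 to Fzr1 (0.015) and Jund, the most distant, to Endog (0.12). With 4 samples such likeness is a description only, and ranking by Pearson correlation instead kept 1 of the 16 nearest genes.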

How the data were processed

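mRNA-seq of 2 control and 2 Kap1 KD samples was used; the small RNA tables, which hold tRNA and snoRNA sequences, were not used here. The authors aligned reads to mm9 with TopHat2 2.0.11 and deposited raw counts per Ensembl gene from HTSeq 0.6.1; the labels name a stranded kit, but the strand setting of the counting is not given in the sources used here. Symbols, exons and coordinates came from an annotation of the same build, which matched 21806 of 21915 genes, and promoters from RefSeq. Counts were tested with edgeR 4.0.16 in R 4.3.3 (filterByExpr, TMM, quasi-likelihood F test, no covariate), with DESeq2 1.42.0 as an alternative; standard errors are the log2 fold change over the square root of F. Changes per replicate number used CPM plus 0.1, which understates changes of low genes. In each group 1 sample is labelled 2 and the other, without a number, was taken as 1. Total counts of 41566888 to 53605115 per sample limit the precision of Fos and Fosb most. The script for tests across genes was tested on simulated data with a dispersion of 0.01 and no difference between replicate numbers, a setting unlike these samples. Named genes were Trim28, the members, the 2 genes most like each, and in each list the 2 highest and the 2 with the largest change; hepatocyte and other cell type markers were listed too. Members and lists were chosen with earlier results of these data known. Alternatives changed the test, the normalization, the count filter, the threshold, the pseudocount, the gene length, the measure of likeness, the samples, and a block for the replicate number.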

Additional observations from a re-analysis of the deposited data

How the results depend on the processing

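No member was called under other scalings, without the low-count filter, with adjusted p alone, with DESeq2 without a block or without any 1 sample, and leaving out a sample assumes that the lone sample varies like the other group. All genes called higher and lower were 2 and 1 with DESeq2 and ranged from 2 to 45 and from 1 to 20 when a sample was left out. Deviations from the group means correlated at 0.80 (across genes) between samples of the same number. A first component with 74.4% of the variance separated the numbers. Same-numbered samples thus shared a pattern, but with 2 numbers and no label of a shared batch its source is not known. With the replicate block, edgeR called 292 genes higher (2.06%) and 339 lower (2.4%) and DESeq2 107 and 124; edgeR's block fit left 1 residual degree of freedom with an infinite prior. It called 2 members higher, Fosb (adjusted p = 0.00489) and Atf3 (adjusted p = 4.8e-13), and DESeq2 1, Atf3 (adjusted p = 1.5e-05). In the edgeR block fit Fosl1, Junb and Jund had adjusted p of 0.00935, 2.0e-11 and 4.3e-05 at changes under 1.5-fold. An adjusted p under 0.05 was reached in that fit by 3052 of the 14142 tested genes (21.6%). In the lists, edgeR with the block called 1 of 24 dimer partners higher and 2 lower. It called 1 of 27 MAP kinase genes, 1 of 15 turnover genes, 4 of 30 targets and 3 of 16 immediate early genes higher. Another 4 targets were called lower, where the shares of all tested genes were 2.06% higher and 2.4% lower. DESeq2 with the block gave the same counts, except that 2 targets were lower. Leaving out a sample gave 0 to 1 dimer partner and 0 to 1 target higher. The log2 fold change reversed for Fosl2 without control replicate 1 (-0.082) and, without Kap1 KD replicate 2, for 3 members; leaving out a sample gave -0.26 to 0.86 for Fosl1, -0.18 to 0.31 for Fosl2 and -0.083 to 0.98 for Junb. The ranges were 0.51 to 0.90 for Atf3, 0.28 to 1.05 for Fosb, 0.08 to 0.50 for Fos, 0.08 to 0.22 for Jun and 0.05 to 0.69 for Jund. Without Kap1 KD replicate 1, an alternative chosen after seeing the data, 8 members lay above both control samples, which restates that each was highest in Kap1 KD replicate 2. The order by level kept 5 of 8 ranks in control replicate 2 alone, and likeness by Pearson correlation kept 1 of 16 genes. With CPM plus 1, the changes of Fosb per replicate number were 0.35 and 0.56. Depth limits Fosb and Fos, at 69 to 149 counts.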
